A study of Rattus norvegicus with 31 samples.

Results

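The calcium release and reuptake genes of the rat heart were Ryr2, Casq2, Trdn, Jph2, Cacna1c, Atp2a2, Pln, Sln, Slc8a1 and Camk2d. They were chosen by symbol and make up 10 of the 19100 genes of a RefSeq table. In a second table, which holds 46063 genes that the authors assembled out of their own reads, a symbol was read from the gene that carries that name alone and has the highest mean. This gave 9 members, because no assembled gene carried the name Pln. RNA was taken from the left ventricle of untreated male rats, and rRNA-depleted stranded total RNA libraries were sequenced. BN-Lx (strain BN-Lx/Cub, a normotensive Brown Norway congenic) and SHR (SHR/OlaIpcv, the spontaneously hypertensive rat) are the inbred progenitors of the HXB/BXH panel. BN-Lx had 4 libraries and SHR had 6, of which 3 carry replicate number 4 in different sequencing batches, so that each strain was compared with 4 libraries, all of batch 1. The recombinant inbred strains, each a fixed mosaic of both progenitor genomes, comprised 12 HXB and 9 BXH strains from reciprocal crosses with 1 library each, in batches 2 and 3. Both families thus segregate the same 2 sets of autosomal alleles, and a family is no genotype at any given autosomal locus. The Y chromosome and the mitochondrial genome were not examined. Neither ages nor litters were given in the sources used here.

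In a ventricular myocyte, depolarization opens the L-type calcium channel, and the calcium that enters opens the ryanodine receptor of the facing sarcoplasmic reticulum. The store is buffered by calsequestrin, which triadin ties to the receptor, and junctophilin holds both membranes together. Relaxation follows as the SERCA pump, restrained by phospholamban or sarcolipin, returns calcium to the store and the sodium-calcium exchanger expels the rest, while CaM kinase II phosphorylates the channel, the receptor and phospholamban.

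Values were deposited on a log2 scale without counts, so no library's depth is known and intervals for counting error were not possible. Library medians ran from 7.89 to 7.97 in the RefSeq table and from 3.99 to 4.73 in the assembled table. Cardiomyocyte markers were high in every group (Tnnc1, the least abundant of 10 in the RefSeq table, averaged 15.99 in HXB and 16.10 in BXH). The summed level of 6 skeletal muscle markers, nearly all of it the muscle creatine kinase Ckm that heart also expresses, averaged 16.44 in HXB and 16.84 in BXH, and the lowest of them, the actinin Actn3, averaged 0.77 and 0.82. Libraries of SHR replicate 4 differed from each other. In the assembled table the later library differed from that of batch 1 by a median absolute difference of 0.28 over 10045 genes with a mean over 8, and in the RefSeq table both later libraries differed by 0.07 over 9376 genes. A library score was therefore computed after the data were seen, as the slope of a library's deviation from the mean on that assembled-table difference, over 10043 genes that include the members. A score higher by 1 lies further along this difference by the whole gap between both libraries. It ran from -0.83 to 0.16 in BXH and from -0.53 to 0.63 in HXB, with means of -0.39 and 0.21, and it ran from -0.19 to 0.16 in SHR and 0.18 to 0.27 in BN-Lx, where the progenitors did not overlap.

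The promoters of 5 members are shown, those of the 4 genes that moved with the library score (Trdn, Camk2d and Slc8a1 upward, Jph2 downward) and that of Casq2, the member that held the MEF2 core. Each is the 250 bases before the annotated start, 5′ to 3′ on the gene's strand, from RefSeq on the GRCr8 build, which is not the rn7 build of the expression files. They lie at chr1:26229600-26229849 on the minus strand for Trdn, chr2:217698301-217698550 on the plus strand for Camk2d, chr6:19023309-19023558 on the plus strand for Slc8a1, chr3:172477922-172478171 on the minus strand for Jph2 and chr2:192214306-192214555 on the plus strand for Casq2. Capitals mark matches to the TATA box (TATAAA), the E-box (CANNTG), the GATA motif (AGATAA), the MEF2 core (TAAAAATA) or the MCAT motif (CATTCC) on either strand, and no matches overlapped each other.
Trdn: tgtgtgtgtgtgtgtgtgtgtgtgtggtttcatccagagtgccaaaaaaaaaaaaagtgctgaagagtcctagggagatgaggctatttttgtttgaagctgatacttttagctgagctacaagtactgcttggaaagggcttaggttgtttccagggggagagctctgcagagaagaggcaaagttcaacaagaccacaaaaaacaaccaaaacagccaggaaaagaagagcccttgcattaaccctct
Camk2d: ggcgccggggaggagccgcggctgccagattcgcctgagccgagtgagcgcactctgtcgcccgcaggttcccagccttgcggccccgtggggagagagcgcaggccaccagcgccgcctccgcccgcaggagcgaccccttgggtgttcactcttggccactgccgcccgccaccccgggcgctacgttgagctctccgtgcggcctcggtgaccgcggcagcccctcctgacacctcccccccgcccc
Slc8a1: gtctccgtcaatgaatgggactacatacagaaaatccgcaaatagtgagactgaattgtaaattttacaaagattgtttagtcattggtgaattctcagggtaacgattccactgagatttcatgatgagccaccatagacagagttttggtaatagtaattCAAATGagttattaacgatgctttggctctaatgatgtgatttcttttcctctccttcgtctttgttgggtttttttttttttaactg
Jph2: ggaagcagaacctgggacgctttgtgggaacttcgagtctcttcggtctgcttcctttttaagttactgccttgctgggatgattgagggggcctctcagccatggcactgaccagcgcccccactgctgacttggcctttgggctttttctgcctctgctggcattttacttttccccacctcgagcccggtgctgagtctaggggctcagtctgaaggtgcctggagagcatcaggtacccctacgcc
Casq2: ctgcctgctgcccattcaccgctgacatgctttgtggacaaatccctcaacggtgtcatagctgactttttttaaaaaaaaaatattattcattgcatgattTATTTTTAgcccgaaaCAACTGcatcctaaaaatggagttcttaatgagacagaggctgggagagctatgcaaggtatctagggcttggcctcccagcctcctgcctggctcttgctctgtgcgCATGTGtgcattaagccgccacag
Trdn, Jph2 and Camk2d held none of the 5, Slc8a1 held an E-box that began 88 bases before the start, and Casq2 held the MEF2 core 148 bases before it and E-boxes 132 and 24 bases before it. Of 33469 promoters of this length, 2.44% held the MEF2 core, 65.5% an E-box, 12.9% the TATA box, 10.3% the GATA motif and 12.1% the MCAT motif. GC content ran from 35.2% for Slc8a1 through 44% for Trdn, 46.4% for Casq2 and 57.2% for Jph2 to 75.2% for Camk2d. RefSeq entries matched 9 of the 10 members, with none for Sln. Each shown promoter belongs to 1 annotated start, whereas assembled transcripts of Slc8a1 began at several positions, among them chr6:13194651 and chr6:13271221 (rn7). Sequences before other starts were not examined.

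Among the 9 members of the assembled table, which had no value for Pln, the pump had the highest level per kilobase of transcript. Over the 8 progenitor libraries of the assembled table, Atp2a2 (SERCA2) averaged 15.86 ± 0.06 on the log2 per-kilobase scale (SD, n = 8), followed by Casq2 (13.70 ± 0.11), Ryr2 (12.93 ± 0.15), Jph2 (11.91 ± 0.14), Slc8a1 (10.75 ± 0.14), Trdn (9.96 ± 0.14) and Camk2d (8.65 ± 0.11). Cacna1c, the pore of the L-type channel, averaged 7.47 ± 0.35, and Sln, a small inhibitor of the pump that is typical of atria, 4.45 ± 0.55. The ranges of neighbours in this order did not overlap, with the smallest gap of means, 0.77, between Casq2 and Ryr2. The places of Cacna1c and Camk2d depend on the length used. The assembled gene that represents Cacna1c had an abundance-weighted length of 102 kb, and that of Camk2d 12.8 kb. By the length of the longest transcript, Camk2d averaged 6.87, below Cacna1c at 7.11. Slc8a1 was then at 9.29 and Trdn at 8.52, and the rest of the order was kept. In the RefSeq table, where values are not per length, Atp2a2 ranked 10th of 19100 genes by its mean over the 21 recombinant strains, Ryr2 25th, Pln 35th and Casq2 71st, whereas Trdn ranked 2675th and Sln 14664th.

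SHR was set against BN-Lx to ask which members differ between the hypertensive and the normotensive progenitor. Slc8a1, the sodium-calcium exchanger, was lower in SHR, and the other 8 members measured did not pass the test. Thus 1 of 9 passed, while 14.3% of all 46063 assembled genes did (7.38% higher and 6.95% lower), and the median log2 fold change of the members was -0.04 against 0.01 for all genes. Tissue was bulk, so fewer cells of a type and less RNA per cell cannot be told apart.

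Slc8a1 was 14.79, 14.66, 14.80 and 14.68 in the BN-Lx libraries (log2 units) and 14.45, 14.56, 14.52 and 14.47 in the SHR libraries. Every SHR library lay below every BN-Lx library. The log2 fold change was -0.23 (SE 0.06, 95% interval -0.37 to -0.10), a 0.851-fold level, with a limma adjusted p = 0.0258 over all genes. The later library of SHR replicate 4 stood at 14.65, close under the lowest BN-Lx library and 0.18 above the batch 1 library of the same number, which is most of the strain difference. Cardiomyocyte markers were lower in the same libraries, with summed levels from 21.60 to 21.77 in BN-Lx and from 21.46 to 21.57 in SHR, a median difference of -0.20 over 9 markers and 2 of the 9 passing. Relative to these markers Slc8a1 differed by -0.08 (adjusted p = 0.454), after quantile normalization by -0.12 (adjusted p = 0.264) and with the library score in the fit by -0.14 (adjusted p = 0.482). The score is built on SHR replicate 4, a library also tested here, and did not overlap between the strains. The fit with the score therefore cannot separate strain from score. Adjusted p (limma) of Slc8a1 rose to 0.0663 and 0.0735 when BN-Lx replicates 1 and 3 were left out in turn and to 0.0538 and 0.0781 when SHR replicates 3 and 4 were, and over all alternatives it ran from 0.0258 to 0.482. The most abundant transcript of the gene differed by -0.08 (limma adjusted p = 0.769), so the gene value need not follow that transcript.

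The kinase gene Camk2d, which encodes the main cardiac CaM kinase II, was also separate between the strains. It was 12.48, 12.35, 12.52 and 12.31 in BN-Lx and 12.22, 12.30, 12.25 and 12.22 in SHR. The log2 difference of -0.17 (95% interval -0.32 to -0.02) did not pass the adjusted threshold (limma adjusted p = 0.126), and the later library of SHR replicate 4, at 12.50, lay among the BN-Lx values. Groups that do not overlap were thus found for 2 of 9 members, against 20.6% of all assembled genes.

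None of the 4 genes of the release unit passed the test. Ryr2, the release channel, was 16.83, 17.01, 16.69 and 17.03 in BN-Lx and 16.66, 16.80, 17.02 and 16.90 in SHR, a difference of -0.04 (95% interval -0.25 to 0.16). Casq2, the calcium buffer of the store, differed by 0.01 (-0.15 to 0.18), Trdn, its anchor, by -0.08 (-0.28 to 0.12) and Jph2, which builds the junction, by 0.01 (-0.19 to 0.21). Adjusted p (limma, Benjamini-Hochberg) of these 4 genes ran from 0.599 to 0.976. Between the batch 1 and the later library of SHR replicate 4, Trdn moved by 0.62 and Jph2 by -0.71, each beyond the interval of its strain difference.

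Atp2a2 had the narrowest interval after Slc8a1. It was 18.06, 17.97, 17.91 and 18.00 in BN-Lx and 17.95, 17.86, 18.02 and 17.93 in SHR, a difference of -0.04 (95% interval -0.19 to 0.10, adjusted p = 0.709). Sln, at 4.03, 3.47, 3.75 and 3.83 in BN-Lx and 4.54, 5.02, 3.36 and 3.78 in SHR, differed by 0.40 with the widest interval of the members (-0.36 to 1.17, adjusted p = 0.488). Its SHR libraries spanned more than its BN-Lx libraries and enclosed them. Cacna1c differed by -0.12 (-0.53 to 0.29, adjusted p = 0.733), and its SHR values ran from 13.37 to 14.60.

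**Figure D1:**
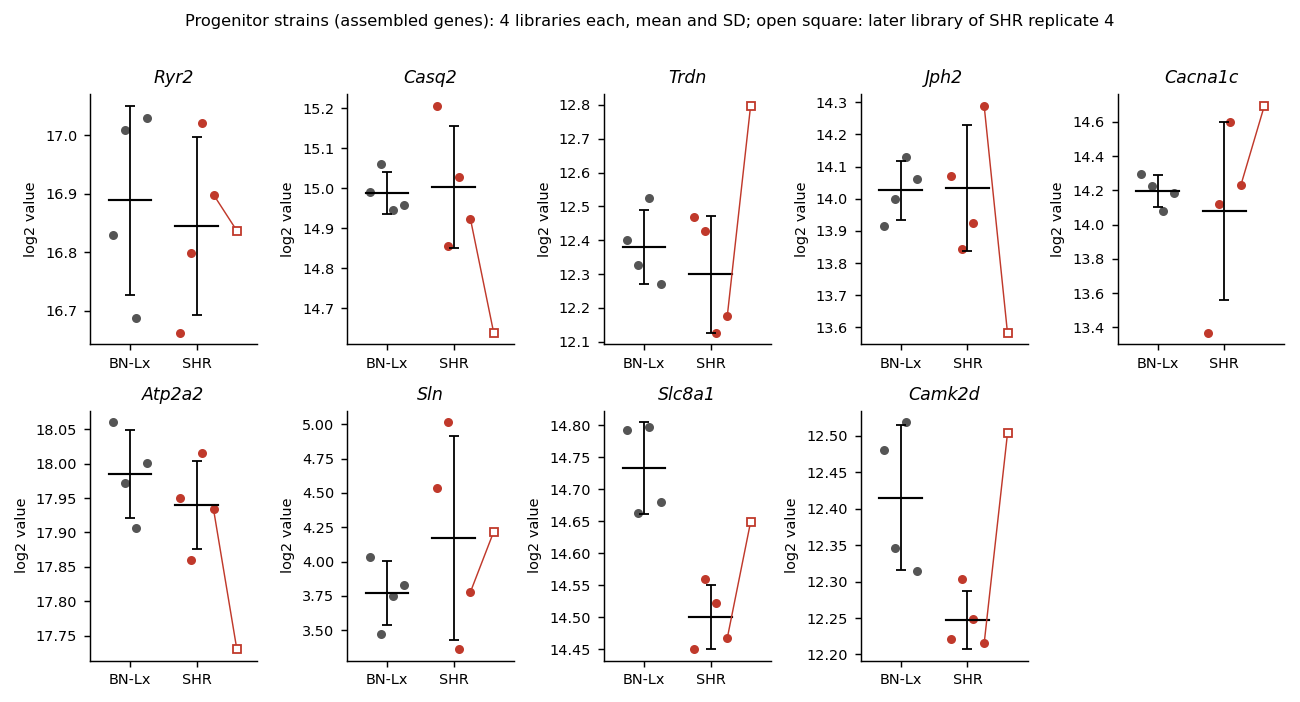
Log2 values of the 9 members in the assembled table, with 4 BN-Lx (grey) and 4 SHR libraries (red) per panel, a line and bar for the mean and SD, and an open square joined to SHR replicate 4 for its later library. Slc8a1 and Camk2d are the genes whose strains do not overlap, and the later library lies above all SHR points for both, at 14.65 and 12.50.

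The name Cacna1c was carried by 17 assembled genes, 16 of them with that name alone. The gene taken by the rule spans 152009938 to 152286476 of chromosome 4 (rn7) with at most 12 exons, and a gene with up to 47 exons that is also named Zfp248 differed by -0.08 (adjusted p = 0.643). Of the 16, 10 passed the test, 6 lower and 4 higher in SHR, while 14.3% of all assembled genes passed. They lie in 1 stretch of chromosome 4, so they are not independent of each other. Log2 fold changes ran from -3.55, for a gene at 8.78 in BN-Lx and 5.23 in SHR, to 1.98, for one at 4.04 and 6.02. Transcripts of the gene taken by the rule were 18062 to 130128 bases long with 2 to 12 exons, so its values need not follow the coding mRNA. Which of the 17 genes gives the level of the coding mRNA was not tested.

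Transcripts of the members were then compared, since isoforms of a gene may move in opposite directions. Of 64 assembled transcripts, 10 passed the test, 5 of Slc8a1, 3 of Cacna1c and 1 each of Ryr2 and Trdn, and among all 91969 transcripts 5.53% did. Casq2, Atp2a2, Jph2, Sln and Camk2d had none. Over all 64, the strains did not overlap in 14 (21.9%), the 10 called ones among them, against 15.8% of all transcripts. Their values in the recombinant strains were examined after the progenitor test, and the description of gaps below was chosen after these values were seen.

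Slc8a1 PRN7.71T0449393 was the transcript with the smallest adjusted p. It was 9.99, 10.02, 10.24 and 10.03 in BN-Lx and 7.49, 7.90, 8.14 and 7.63 in SHR. The log2 fold change was -2.28 (SE 0.17, 95% interval -2.66 to -1.90, limma adjusted p = 0.00014), and it passed under every alternative run for transcripts, with adjusted p up to 0.00438. Unlike the gene as a whole, it was also low in the later library of SHR replicate 4, at 8.03, within the SHR range. It made up 4.15 ± 0.44% of the linear signal of Slc8a1 in BN-Lx and 1.12 ± 0.21% in SHR (SD, n = 4 each).

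The recombinant strains fell on both sides of a gap of 1.11 for this transcript. Below it were 10 strains from 6.80 to 8.56 (4 BXH and 6 HXB), and above it 11 strains from 9.67 to 10.24 (5 BXH and 6 HXB). Both sets thus held strains of both families, and the correlation of the transcript with the library score over the 21 strains was 0.09, given as a description. No genotypes were used here, so the alleles of the strains at Slc8a1 were not compared with these sets.

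PRN7.71T0449393 has 9 exons and 11840 bases and spans chr6:13194651-13540554 on the plus strand (rn7). It differs from the most abundant transcript, PRN7.71T0449405 (10 exons, 11164 bases), at its 5′ end and in the middle of the gene. After the shared exon of 1830 bases it carries an exon of 104 bases (chr6:13476295-13476398) where the abundant transcript carries one of 107 bases (chr6:13475675-13475781). It lacks the following exons of 21, 15 and 69 bases and keeps the one of 18 bases. Slc8a1 is known for alternative splicing of its large cytoplasmic loop, with a pair of mutually exclusive exons followed by small cassette exons. The abundant transcript made up 31.3 ± 1.70% of the gene in BN-Lx and 38.3% in SHR, and its level differed by -0.08 (95% interval -0.36 to 0.20, adjusted p = 0.769).

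A shorter Slc8a1 transcript moved the other way. PRN7.71T0067459, with 6 exons, among them both the 107-base and the 104-base exon, was 2.72, 2.73, 2.76 and 2.79 in BN-Lx and 7.66, 6.85, 5.98 and 7.41 in SHR, a log2 fold change of 4.22 (SE 0.38, adjusted p = 0.0004). The later library of SHR replicate 4 was at 5.605, below the other SHR libraries and above BN-Lx. The transcript was rare in both strains, at 0.026% and 0.686% of the gene. In the recombinant strains 4 HXB strains (HXB3, HXB13, HXB21 and HXB24) lay from 1.24 to 2.44 and the other 17 strains from 4.63 to 6.98.

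The remaining 3 called Slc8a1 transcripts, PRN7.71T0222284, PRN7.71T0449392 and PRN7.71T0449394, have 3 to 5 exons and 21180 to 40209 bases. They made up 8.33%, 10.2% and 12.5% of the gene over the progenitor libraries. Each holds a long exon, of 21121, 34596 and 9673 bases, that shares no base with the abundant PRN7.71T0449405. These exons lie between the exons of 1833 and 107 bases of that transcript. The 3 called transcripts fell by 0.80, 0.76 and 0.62 in SHR and passed in 3, 4 and 3 of 12 alternatives. Unlike PRN7.71T0449393, they stood at 11.36, 12.05 and 11.95 in the later library of SHR replicate 4, within or above the BN-Lx range, and their correlations with the library score over the 21 strains were 0.90, 0.95 and 0.91. Ryr2 PRN7.71T0289558 had the same pattern, a fall by 0.82 in SHR (adjusted p = 0.0121), 12.61 in the later library, calls in 11 of 12 alternatives and a correlation of 0.87 with the score. The part of the library difference in these calls was not tested.

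Trdn had 1 called transcript, PRN7.71T0414563 with 38 exons, which was 7.57, 8.01, 8.07 and 8.04 in BN-Lx and 8.80, 9.12, 8.31 and 8.82 in SHR. The rise of 0.84 (SE 0.21, adjusted p = 0.0499) lay at the threshold and passed in 2 of 12 alternatives, and the later library was at 9.09. Its share of Trdn was 4.66 ± 0.97% in BN-Lx and 9.23 ± 1.54% in SHR. Of the Cacna1c transcripts, PRN7.71T0442171 and PRN7.71T0442176 rose by 1.54 and 1.82 and PRN7.71T0442175 fell by 2.48 in SHR, all of the assembled gene with at most 12 exons. The later library of SHR replicate 4 stood at 12.74 and 9.48 for the first pair, within the SHR range, and at 9.84 for PRN7.71T0442175, between both strains and 1.49 above the batch 1 library. PRN7.71T0442171 passed in 3 of 12 alternatives (adjusted p up to 0.0952, limma), and the other two in all 12.

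**Figure D2:**
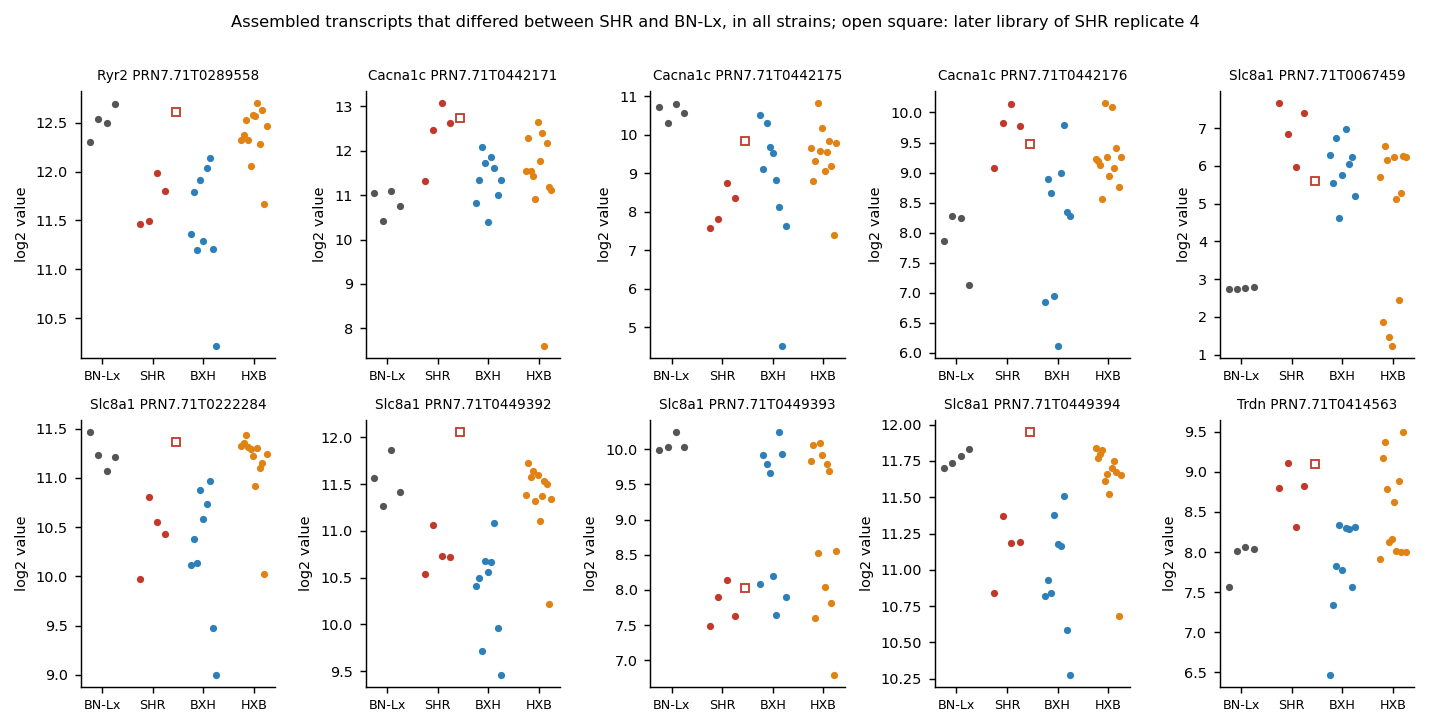
Log2 values of the 10 assembled member transcripts called between SHR and BN-Lx, with a point per library for BN-Lx, SHR, BXH and HXB and an open square for the later library of SHR replicate 4. PRN7.71T0449393 of Slc8a1 shows strains of both families on both sides of a gap, 10 from 6.80 to 8.56 and 11 from 9.67 to 10.24. Neither set keeps to a progenitor range, which is 7.49 to 8.14 in SHR and 9.99 to 10.24 in BN-Lx. In Slc8a1 PRN7.71T0222284, PRN7.71T0449392 and PRN7.71T0449394 and in Ryr2 PRN7.71T0289558 the open square lies within the BN-Lx points or above them.

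The families were compared to ask whether the members differ between the reciprocal crosses. Trdn, Camk2d and Ryr2 were higher in HXB than in BXH and Jph2 was lower, so 4 of 10 members passed the test, while 36.3% of all 19100 genes did. The median log2 difference of the members was 0.08 against -0.01 for all genes. No member had families that do not overlap, and 0.204% of all genes did.

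Trdn ran from 10.09 through a median of 10.36 to 10.86 in BXH and from 10.59 through 11.05 to 11.75 in HXB. All but 1 of the HXB strains lay above every BXH strain. The log2 difference was 0.70 (SE 0.11, 95% interval 0.47 to 0.94), a 1.63-fold level (limma adjusted p = 0.00035). It was 0.79 in batch 2 alone (3 strains each, adjusted p = 0.602) and 0.67 in batch 3 (6 BXH and 9 HXB strains, adjusted p = 0.000605). With the library score in the fit it was 0.43 (95% interval 0.13 to 0.73, adjusted p = 0.376), and its slope on the score was 0.45 per unit (adjusted p = 0.0431).

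Jph2 ran from 14.04 through 14.41 to 14.64 in BXH and from 13.95 through 14.19 to 14.39 in HXB. The difference was -0.24 (SE 0.07, adjusted p = 0.00891). It was -0.02 in batch 2 (SE 0.13, adjusted p = 0.975), where 2 of the 3 BXH strains were the lowest of their family, and -0.33 in batch 3 (adjusted p = 0.0013). With 3 strains per family, batch 2 cannot tell a missing difference from one of this size. The family by batch term was -0.31 (limma adjusted p = 0.615). With the score in the fit the family difference was 0.01 (95% interval -0.11 to 0.13). Jph2 had the closest relation to the score of all members, with a slope of -0.40 (adjusted p = 0.000173) and a correlation of -0.90 over 21 strains. Scaled to cardiomyocyte markers, the family difference was -0.12 (adjusted p = 0.0593).

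Camk2d ran from 11.48 through 11.74 to 12.01 in BXH and from 11.71 through 11.89 to 12.06 in HXB, a difference of 0.18 (SE 0.06, adjusted p = 0.0157). Ryr2 ran from 16.46 through 16.78 to 17.03 in BXH and from 16.70 through 16.92 to 17.16 in HXB, a difference of 0.22 (SE 0.07, adjusted p = 0.0259). Both overlapped widely, with 3 and 4 HXB strains above every BXH strain. With the score in the fit Camk2d was -0.00 (95% interval -0.12 to 0.12) and Ryr2 0.18 (-0.04 to 0.39).

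Slc8a1 lay near the threshold, at 13.82, 14.14 and 14.25 in BXH and 13.98, 14.28 and 14.38 in HXB (lowest, median and highest). The difference of 0.14 (95% interval 0.02 to 0.27) had an adjusted p = 0.0587, with 9 of 12 HXB strains above every BXH strain, and it was -0.06 (-0.17 to 0.05) with the score in the fit. Pln, the inhibitor of the pump, differed by 0.10 (-0.01 to 0.22, adjusted p = 0.147). The interval was -0.10 to 0.12 around 0.01 for Atp2a2, -0.13 to 0.12 around -0.00 for Casq2, -0.11 to 0.16 around 0.03 for Cacna1c and -0.31 to 0.42 around 0.06 for Sln.

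The score moved with several of these genes. Its slope passed for 4 of 10 members, Trdn, Slc8a1 (0.33) and Camk2d (0.30) upward and Jph2 downward, against 32.1% of all genes. With the score in the fit 0 of 10 members passed in limma, 1 with an unadjusted p under 0.05, against 0.0314% of all genes. Family and score moved together in these libraries, and which of them the member differences follow was not tested beyond this fit. Sequencing batch was called for 0 of 10 members in limma (0 with an unadjusted p under 0.05), against 0.0209% of all genes.

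Other tables and scalings changed the set. In the assembled table, where 27.9% of all genes passed, 4 of 9 members did. Trdn (0.54) and Jph2 (-0.40) were among them, with Atp2a2 at -0.16 (limma adjusted p = 0.039) and Cacna1c at 0.36 (limma adjusted p = 0.0418), whereas Ryr2 (0.06) and Camk2d (0.10) were not. Values of the assembled Cacna1c gene need not follow the coding mRNA. Scaled to cardiomyocyte markers, which moved the median of all genes from -0.01 to 0.11, 6 members were higher and 0 lower, while 32.5% of all genes were higher and 6.53% lower. After quantile normalization 5 were higher and 1 lower, while 18.4% of all genes were higher and 18% lower. Cardiomyocyte markers themselves passed for 6 of 10, 1 higher and 5 lower in HXB, with summed levels from 21.94 to 22.31 in BXH and from 22.07 to 22.28 in HXB, and their part in the member differences was not tested.

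**Figure D3:**
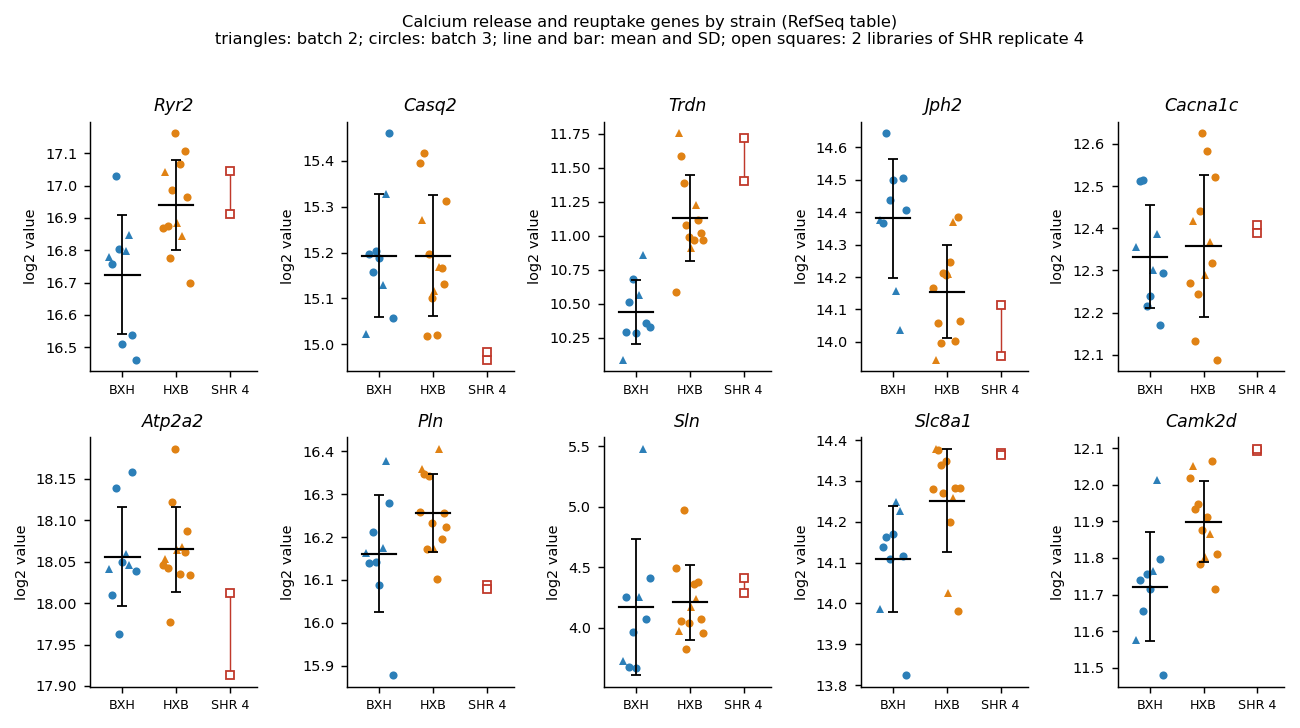
Log2 values of the 10 members in the RefSeq table for 9 BXH and 12 HXB strains, with triangles for batch 2, circles for batch 3, a line and bar for the mean and SD, and open squares for 2 libraries of SHR replicate 4. Trdn has the clearest separation, with BXH up to 10.86 and HXB from 10.59, and in no panel are the families fully apart.

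**Figure D4:**
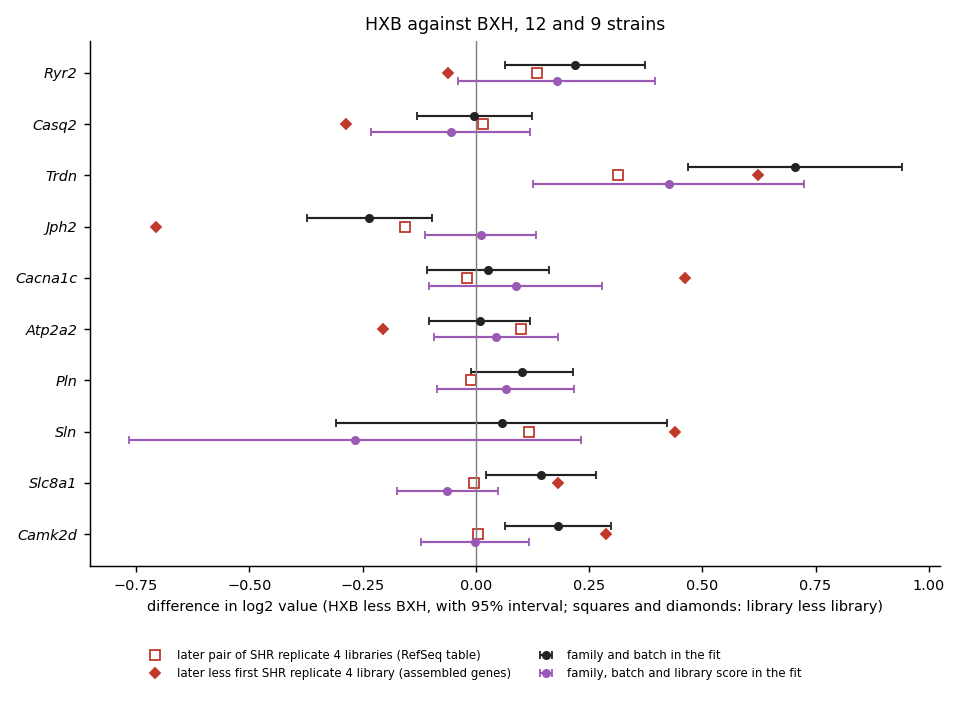
Difference between HXB and BXH in log2 units with its 95% interval, fitted with family and batch (black) or with the library score added (purple), beside the difference between libraries of SHR replicate 4 in both tables (red). Trdn, at 0.70 and 0.43, keeps an interval above 0, whereas Jph2 and Camk2d move to 0.01 and -0.00.

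The members differed in how much they varied over the 21 strains. The SD of Atp2a2 was 0.05, and 0.325% of all genes had a smaller one, with all strains between 17.96 and 18.19. Pln (0.12), Casq2 (0.13), Slc8a1 (0.14), Cacna1c (0.15) and Camk2d (0.15) lay below the median gene, and Ryr2 (0.19) and Jph2 (0.19) just above it. Trdn (0.45) and Sln (0.42) varied more than 96.4% and 95.8% of genes. Sln is among the less abundant genes, with a mean of 4.19 above that of 23.2% of genes. The part of its low level in its spread was not tested.

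Sln is expressed mainly in atria, so atrial markers were read beside it. Its highest strain was BXH6 at 5.48, followed by HXB20 at 4.97, and its lowest was BXH2 at 3.67. BXH6 also had the highest levels of the atrial myosin light chains Myl7 (8.44, the other strains from 5.85 to 7.87) and Myl4 (8.67, the others from 6.99 to 8.18). The summed level of the 9 atrial markers measured ran from 13.52 to 14.49 in BXH and from 13.49 to 14.49 in HXB, where BXH6 ranked 7th of 21 and HXB20 11th, and no marker was at 0. The part of atrial tissue in the Sln values was not tested.

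Transcripts of the RefSeq table are given without a test. Atp2a2 NM_001110139.2, the main form in heart, averaged 17.99 ± 0.06 in BXH and 17.99 ± 0.06 in HXB, and NM_001110823.2 averaged 12.16 ± 0.14 and 12.12 ± 0.26. The non-coding NR_027839.1 of the same gene averaged 11.07 ± 0.33 in BXH (n = 9) and 11.75 ± 0.21 in HXB (n = 12), and its ranges overlapped from 11.40 to 11.56. Slc8a1 NM_019268.3 averaged 13.11 ± 0.20 and 13.29 ± 0.14, and its predicted transcript XM_039111889.1 10.56 ± 0.52 and 11.45 ± 0.40. Its transcript XM_039111888.1 went the other way, with 12.07 ± 0.23 in BXH and 11.84 ± 0.10 in HXB. Trdn NM_021666.3, the 1 of 17 listed accessions that was matched, averaged 10.37 ± 0.26 and 11.12 ± 0.34.

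The other genes of calcium cycling were taken as a list of 78, of which 67 were found in the assembled table and 75 in the RefSeq table. Between SHR and BN-Lx, 13 of 67 passed the test, 7 higher and 6 lower, or 19.4% against 14.3% of all genes, with a median of -0.01. At the junction, Tmem38a, a counter-ion channel of the store, fell by 0.40 and S100a1, an activator of the ryanodine receptor and the pump, fell by 0.37. Among pump genes, Strit1, whose peptide DWORF relieves the pump of its inhibitors, fell by 0.67, while Atp2a3 (SERCA3) rose by 0.40 and the plasma membrane pump Atp2b2 by 1.24. The channel genes moved both ways, with Cacna1h (T-type) up by 0.83, the subunit Cacnb3 up by 0.55 and Cacna1d (Cav1.3) down, at -0.72.

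Of the regulators, Ppp1r1a, the inhibitor of protein phosphatase 1, rose by 0.62, Calm3, a calmodulin gene, by 0.38 and Stim2, a store calcium sensor, by 0.44. Ppp1r3a, a phosphatase targeting subunit, fell by 0.29, and Mcub, a subunit that restrains the mitochondrial uniporter, fell by 0.92. Reads of Calm3 may be shared with near-identical coding sequences, such as that of Calm2. Adjusted p (limma) of the 13 genes ran from 2.72e-06 for Atp2b2 to 0.0361 for Calm3. With the library score in the fit 3 passed, Atp2b2 (1.06), Cacna1h (0.96) and Tmem38a (-0.50), against 3.11% of all genes. All 13 kept their direction, and their median absolute log2 fold change was 0.55 without the score and 0.52 with it, while the median SE was 0.11 and 0.17. Among those that no longer passed, Mcub was at -1.14 (adjusted p = 0.0692), Strit1 at -0.63 (adjusted p = 0.0608), Stim2 at 0.54 and Atp2a3 at 0.14. Scaled to cardiomyocyte markers, which moved the median of all genes from 0.01 to 0.16, 16 passed, 13 higher and 3 lower, and of all genes 12.2% were then higher and 4.05% lower.

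Atp2b2 had the largest change of the list. It was 8.35 ± 0.08 in BN-Lx, from 8.25 to 8.45, and 9.59 ± 0.12 in SHR, from 9.48 to 9.75 (SD, n = 4 each). Endothelial markers differed between the same libraries, 6 of 8 passing (5 higher and 1 lower in SHR), and 4 of 7 smooth muscle markers were higher. Macrophage markers passed for 4 of 7, 1 higher and 3 lower, and 14.3% of all assembled genes passed. The summed endothelial level overlapped, from 15.74 to 15.79 in BN-Lx and from 15.75 to 15.90 in SHR. That of smooth muscle did not, from 14.32 to 14.41 in BN-Lx and from 14.52 to 14.58 in SHR. The part of these cell types in the changes of genes that myocytes share with them was not tested.

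Between the families 30 of 75 genes passed, 15 higher and 15 lower in HXB, or 40% against 36.3% of all genes, with a median of -0.04. Of the genes of the store and its release, the junctophilin Jph1 (0.23), the receptor regulator Sri (sorcin, 0.15) and the minor ryanodine receptor Ryr3 (0.36) were higher. So were the inositol trisphosphate receptors Itpr1 (0.16) and Itpr2 (0.23). The receptor-binding Fkbp1a (-0.18), S100a1 (-0.28), Tmem38a (-0.27), Calr (-0.24), Dhrs7c (-0.22) and Ryr1 (-0.22) were lower. Of entry and extrusion, the channel subunits Cacna2d1 (0.35) and Cacnb4 (0.25), Ahnak (0.18) and the plasma membrane pump Atp2b1 (0.33) were higher and the channel inhibitor Rrad (-0.42), the mitochondrial exchanger Slc8b1 (-0.18), the caveolin Cav3 (-0.24) and the store-operated channel Orai1 (-0.36) lower.

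Of the signalling genes, Ppp1r3a (0.55), Ppp1cb (0.34), Akap6 (0.29), Pde3a (0.24) and Strn (0.30) were higher and Prkaca (-0.25), Ppp1ca (-0.32) and Calm3 (-0.22) lower. Of the mitochondrial uniporter, Micu2 (0.22) was higher and Smdt1 (-0.20) lower. Adjusted p (limma) ran from 0.00032 for Strn to 0.046 for Cacnb4. With the score in the fit 0 of 75 passed in limma, 5 with an unadjusted p under 0.05. The direction was kept by 29 of the 30, and their median absolute log2 difference was 0.25 without the score and 0.09 with it. Scaled to cardiomyocyte markers 31 passed, 23 higher and 8 lower, where 32.5% of all genes were higher and 6.53% lower. Among assembled genes 27 of 67 passed, 8 higher and 19 lower, where 15.1% of all genes were higher and 12.8% lower.

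Genes called in both comparisons, which share no library, were S100a1, Tmem38a, Ppp1r3a and Calm3. Of the list 19.4% passed between the strains and 40% between the families, and whether more are shared than these rates give was not tested. Each of these genes also had a called slope on the library score, as 30 of 75 pathway genes did. With the score in the family fit S100a1 was -0.04, Tmem38a -0.05, Ppp1r3a 0.27 and Calm3 -0.04, and none passed. S100a1 and Tmem38a were lower in SHR and lower in HXB. Ppp1r3a was lower in SHR (-0.29) and higher in HXB (0.55), and Calm3 was higher in SHR (0.38) and lower in HXB (-0.22).

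Pairs of members were correlated over the 21 strains after centring within batch, with 100000 permutations and Benjamini-Hochberg adjustment over 45 pairs. In all 12 pairs passed, 9 positive and 3 negative, and the median r of the 45 was 0.14. The strongest was Slc8a1 with Camk2d (r = 0.80, rho = 0.77, permutation p = 4e-05, adjusted 0.0018), and r was 0.72 without the 2 strains farthest from the median. Jph2 ran opposite to Camk2d (r = -0.75, rho = -0.78, permutation p = 0.00012, adjusted 0.0027, r = -0.73 without 2 strains), Trdn (-0.70) and Slc8a1 (-0.65). Trdn with Camk2d reached 0.68 and with Slc8a1 0.66. Pln was positive with Slc8a1 (0.67), Casq2 (0.62), Camk2d (0.61) and Trdn (0.57), and Ryr2 with Cacna1c (0.62) and Trdn (0.54). Over the 9 positive pairs rho ran from 0.54 to 0.77 and over the 3 negative pairs from -0.78 to -0.68, with adjusted permutation p up to 0.0378 for r and 0.0475 for rho. Within batch 3 alone 3 pairs passed, and without the 2 farthest strains 5 did.

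With the library score regressed out 3 pairs passed, all positive. These were Ryr2 with Cacna1c (r = 0.76), Pln with Casq2 (0.63) and Pln with Slc8a1 (0.62). Slc8a1 with Camk2d was 0.29, and Jph2 with Camk2d and with Trdn was 0.02 and 0.03. The score itself correlated with Jph2 (-0.90), Slc8a1 (0.85), Camk2d (0.84) and Trdn (0.79) and less with Ryr2 (0.49) and Pln (0.44). With both batch and family centred 4 pairs passed, and 31 did after scaling to cardiomyocyte markers, which adds 1 shared term to every gene of a library. In the assembled table, which lacks Pln, 11 of 36 pairs passed, 5 positive and 6 negative, with a median r of 0.01. Ryr2 with Cacna1c was 0.34 there and did not pass, but the assembled Cacna1c gene need not follow the coding mRNA.

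**Figure D5:**
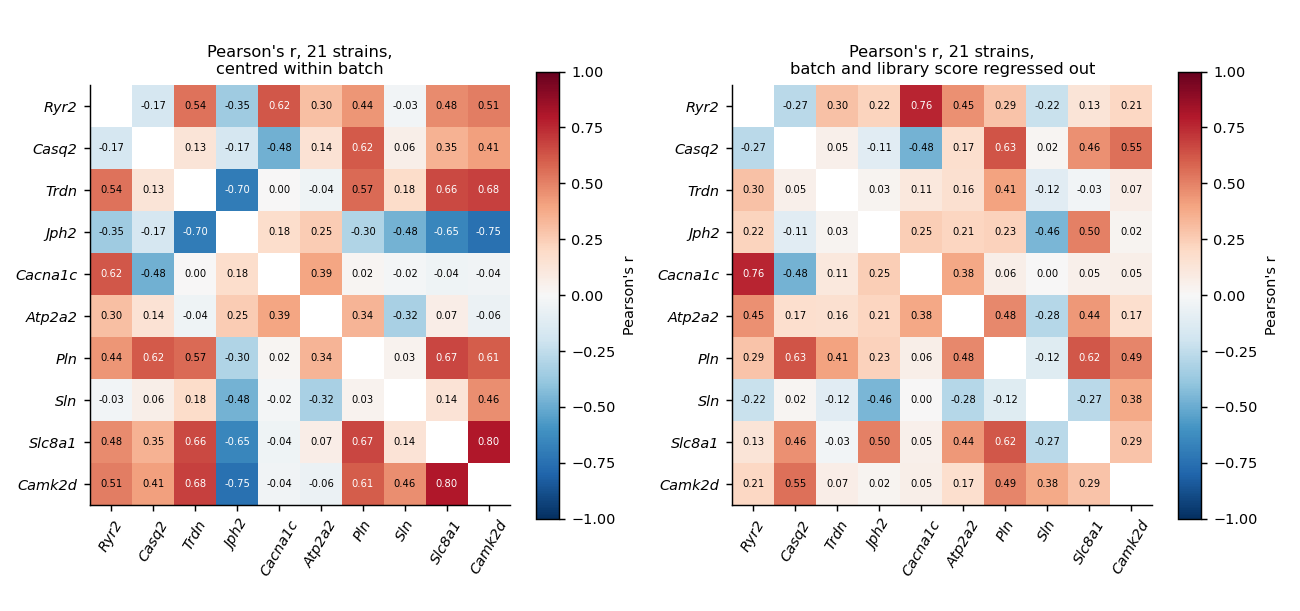
Pearson's r between the 10 members over 21 recombinant strains, centred within batch (left) and with batch and the library score regressed out (right), red for positive and blue for negative values. The block of Slc8a1, Trdn and Camk2d against Jph2, with r from -0.65 to -0.75 on the left, runs from 0.02 to 0.50 on the right, whereas Ryr2 with Cacna1c stays at 0.62 and 0.76.

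The genes most like each member were sought among 9550 genes at or above the median level, by Pearson's r over the same 21 strains, as a description. Trdn was nearest to Nexn, a sarcomeric actin-binding protein gene (0.98), Esf1 (0.97) and Ppig (0.97), and these stayed at 0.94, 0.94 and 0.93 with the score regressed out. Its most opposite gene was Gas2l1 (-0.90). Jph2 was nearest to Rab3a (0.96), Zdhhc1 (0.95) and Trim28 (0.95), which fell to 0.80, 0.74 and 0.69. Slc8a1 was nearest to Map2k4 (0.92), Usp40 (0.92) and Dennd5b (0.91), which fell to 0.66, 0.65 and 0.59.

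Ryr2 was nearest to Kif13a (0.91), Hdlbp (0.91) and Twnk (0.89) and Cacna1c to Fry (0.87), Pde4dip (0.86) and Prpf8 (0.85). These values changed little with the score regressed out, from 0.87 to 0.91. Pln was nearest to Arpc5l (0.84), Slc16a6 (0.82) and Ankrd28 (0.82) and most opposite to the collagen gene Col3a1 (-0.84), and Casq2 was nearest to Sec11c (0.82), Ebna1bp2 (0.82) and Emc7 (0.81). Camk2d was nearest to Samd8 (0.93), Mtmr2 (0.93) and Rnf170 (0.92), which fell to 0.77, 0.75 and 0.67. The nearest genes of Atp2a2, Sfmbt1 (0.63), and of Sln, Adar (0.72), were the least like their member among the 10.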

How the data were processed

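Left ventricle libraries were assigned to groups from their labels. The log2 values deposited by the authors were used as given, and 0 columns of values stayed unmapped. In the submitters' processing notes the aligners and quantifiers named are HISAT2 2.1.0, Bowtie2 2.3.4.3 and RSEM 1.3.1, the assembler StringTie 1.3.5, the trimmer cutadapt 1.9.1 and the build rn7, and DESeq2 is listed with no version. What each tool did to these files, and the transformation, is not given in the sources used here. With the depth unknown, the number of libraries per group limits the precision. Spike-in RNAs entered no test.

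Differences were tested two-sided in R 4.3.3 with limma 3.58.1, whose eBayes step used an intensity trend, and p-values were adjusted over every feature of a table (Benjamini-Hochberg, threshold 0.05). The progenitor strains were compared within batch 1 with no covariate, in the assembled tables, because the BN-Lx columns used here are in those. The families were compared in the RefSeq table with batch as a covariate. Correlations used 100000 permutations (Python 3.11.15, numpy 2.4.6, pandas 2.3.3, scipy 1.17.1). Exon coordinates were read from the transcript annotation deposited by the authors, and the name of an assembled gene is the one given there. Per-kilobase levels subtract the log2 of the abundance-weighted transcript length. Later libraries numbered SHR replicate 4, of batch 2 or batch 3 (their columns do not tell which), were taken as repeats of 1 sample. They served the technical difference, the library score and 1 alternative. Whether replicates came from separate litters is not stated, and p-values measure only the spread between the libraries sampled.

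The members and the lists were chosen with earlier results of these data known. The rule for named genes took every member, every called gene of the pathway list, called member transcripts and, for each member, the 3 nearest genes and the most opposite one, of which the text gives a selection. A called gene of the pathway list is counted but not reported here by name. RefSeq transcripts of Atp2a2, Slc8a1 and Trdn and the strains with high Sln were picked on their values. The fits were tested on simulated data. Alternatives left out libraries or low values, changed the trend, the scaling, the annotation or the batches, or added a replicate block, and the library score was added after seeing the data.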

Additional observations from a re-analysis of the deposited data

Results flagged for a closer look

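Of 28 groups of values examined, 1 held a library far from the others of its group, and chance alone gives about 1 in 20. Sln in the BXH strain BXH6 was 5.48, whereas the other 8 BXH strains ran from 3.67 to 4.41. The gap to its nearest neighbour was 0.588 of the range of the 9 strains.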

How the results depend on the processing

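Between SHR and BN-Lx, 1 of 9 members passed, and 0 did in limma without the intensity trend, after quantile normalization, relative to cardiomyocyte markers, with SHR replicate 4 as the mean of 2 libraries or with the library score in the fit (0, 2, 1, 1 and 0 with an unadjusted p under 0.05). Leaving out 1 library gave from 0 to 1. Replicate numbers did not pair the libraries (correlations of deviations 0.19, -0.38, -0.17 and 0.15, and 1 of 8 libraries correlated best with its own number). With a replicate block 0 members passed (Slc8a1 adjusted p = 0.0547, limma, and 2 with an unadjusted p under 0.05), 12 pathway genes did and 5 transcripts. The 13 pathway genes became 8 without the trend, 6 in a fit of all groups, 3 with the score and from 8 (without SHR replicate 4) to 12 without 1 library. The 10 transcripts became 4 without the trend and from 5 to 8 without 1 library, 5 of them without BN-Lx replicate 1, 3 or 4 and 6 without BN-Lx replicate 2 or SHR replicate 3.

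Between the families the 4 members became 0 in batch 2 alone (1 with an unadjusted p under 0.05) and with the score, and 2 (Trdn and Jph2) without the strains of the highest and the lowest score. The 30 pathway genes became 0 in batch 2 alone (8 with an unadjusted p under 0.05) and with the score. The 12 pairs became 3 in batch 3, 5 without the 2 farthest strains, 31 relative to cardiomyocyte markers, 4 centred within family and 3 with the score regressed out. The causes were not tested.

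Directions changed in these cases. Between SHR and BN-Lx, quantile normalization gave 0.19 for Ryr2, 0.0824 for Atp2a2 and 0.0659, 0.0049, 0.15 and 0.15 for the abundant transcripts PRN7.71T0115547, PRN7.71T0449405, PRN7.71T0031193 and PRN7.71T0437063. Relative to cardiomyocyte markers Ryr2 was 0.10, Atp2a2 0.10, Cacna1c 0.0322 and Trdn 0.0664. With the score Ryr2 was 0.0618, Cacna1c 0.47, Casq2 -0.11 and Jph2 -0.19, and with the mean of 2 libraries Casq2 was -0.0209 and Jph2 -0.0823. Without 1 library Ryr2 ran from -0.11 to 0.0172, Cacna1c from -0.29 to 0.12, Casq2 from -0.0529 to 0.0641, Jph2 from -0.0796 to 0.069 and the abundant transcripts of Sln, Slc8a1, Casq2 and Jph2 from -0.55 to 0.80, -0.16 to 0.0081, -0.0908 to 0.0524 and -0.12 to 0.0587.

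Between the families Casq2 was 0.12 after quantile normalization, 0.11 relative to cardiomyocyte markers and 0.0261 in batch 2, where Sln was -0.36 and Itpr1 -0.0054. With the score Sln was -0.27, Slc8a1 -0.0629, Jph2 0.0103, Camk2d -0.0023 and Itpr1 -0.0318. In the assembled table Atp2a2 was -0.16 and Sri -0.0126. With the score regressed out r was -0.0293 for Slc8a1 and Trdn, 0.50 for Slc8a1 and Jph2, 0.0265 for Trdn and Jph2 and 0.0246 for Jph2 and Camk2d. Older tables of the same libraries were not run, since no BN-Lx column was used there. Depth is unknown, so the precision of low genes such as Sln could not be set.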
